A study of Homo sapiens with 12 samples.

Results

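The transcript levels of KMT2A and of 8 genes whose products fuse with it or act beside it were followed in MV4-11 leukemia cells treated with DMSO, mitoxantrone, gilteritinib or both drugs. The 9 genes (KMT2A, AFF1, AFF4, MEN1, PSIP1, DOT1L, MLLT1, MLLT3 and ELL) were chosen by symbol, matched to the Ensembl identifiers of a deposited expression table and all found among its 43876 genes. MV4-11 is an established human acute myeloid leukemia line that is known to carry an internal tandem duplication of FLT3 and the t(4;11) translocation, which joins KMT2A to AFF1. The labels give its genotype as wild-type in all groups and name no added allele. The study asked how mitoxantrone, which its text describes as given in liposomes, works together with the FLT3 inhibitor gilteritinib.

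Each of the 4 conditions had 3 libraries, 12 in all, from cells harvested after 24 h. The DMSO group received vehicle alone, the Mitoxantrone group 20 nM mitoxantrone and the Gilteritinib group 25 nM gilteritinib. The Drug-combination group received 20 nM mitoxantrone with 20 nM gilteritinib, so its gilteritinib dose was below that of the single drug. The sources do not say whether replicates came from separate cultures, so p-values measure only the spread between these libraries, which may be technical. The values are FPKM, fragment counts scaled to gene length and library depth. Levels of different genes can be compared only as far as those lengths are right, and the sources do not give them.

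KMT2A (also called MLL1) is a histone H3 lysine 4 methyltransferase that holds open the HOX genes of blood progenitors. In t(4;11) leukemia its amino-terminal end is joined to the carboxy-terminal part of AFF1 (AF4). That end keeps the contacts with menin (MEN1) and with PSIP1 (LEDGF), which tether it to chromatin. AFF1 brings in AFF4, MLLT1 (ENL), MLLT3 (AF9) and ELL, parts of the super elongation complex that works through P-TEFb together with DOT1L, a histone H3 methyltransferase that marks transcribed genes. Several of these factors are known to be required by KMT2A-rearranged cells, and menin and DOT1L are drug targets there.

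The libraries held about 31700000 to 41300000 fragments, as recovered from the steps that single fragments make in low FPKM values. Replicate number separated them more than treatment did. Along the first principal component, which took up 41.9% of the variance, replicate 1 of each condition stood apart from the others. Over the 18574 genes tested, the Mitoxantrone minus DMSO difference at replicate 1 correlated with the mean difference at replicates 2 and 3 with r = 0.11. The same value was -0.051 for Gilteritinib and -0.027 for Drug-combination, against 0.35, 0.27 and 0.11 between replicates 2 and 3. These correlations run across genes, which are not independent replicates, and are given as descriptions. Of 10 myeloid leukemia markers 9 had a mean FPKM of at least 1, with FLT3 at 158 and LYZ at 699, while CD68 was listed at 0.0996. Of 9 markers of other cell types all lay below 1 except HBB (1.04) and PECAM1 (15.3). The summed level of these 9 markers ranged from 9.27 to 15.8 FPKM in DMSO, 10.8 to 27.7 in Mitoxantrone, 11.9 to 16.6 in Gilteritinib and 13.8 to 16.2 in Drug-combination, and its part in the results was not tested.

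Of the 9 members, 8 were at or above 9.01 FPKM in every library, and MLLT3 was listed near 0. AFF1 was the highest, with 35.9 ± 1.44 FPKM in DMSO (SD, n = 3), and lay above PSIP1 in 12 of 12 libraries. PSIP1 (30.5 ± 0.965), MLLT1 (29.6 ± 4.62), DOT1L (24.2 ± 2.93) and KMT2A (23.2 ± 0.82) followed. Each neighboring pair from PSIP1 to KMT2A in that order overlapped in DMSO, so the order within each such pair was not resolved beyond the spread. All DMSO libraries of PSIP1 (29.4 to 31.2) lay above those of DOT1L (21.4 to 27.2) and KMT2A (22.3 to 24.0). The lowest DMSO library of MLLT1 (24.3) lay just above the highest of KMT2A. AFF4 (17.2 ± 0.449), ELL (13.9 ± 0.777) and MEN1 (11.5 ± 0.533) came next, with no overlap between neighbors from KMT2A down. Among the 10506 protein-coding genes tested, mean levels placed AFF1 at percentile 84.4 and KMT2A at 73.7, and MEN1 was in the middle at 50.4. These ranks and percentiles also rest on gene lengths that the sources do not give. In GENCODE 29 the exons of KMT2A cover 31305 nt and its longest transcript 16628 nt, against 10733 and 9390 nt for AFF1. The place of KMT2A below AFF1 is thus not settled. MLLT3 was listed at 0.179 ± 0.0209 FPKM in DMSO and was at or below 0.222 in every library.

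Within each member the 12 libraries spanned a narrow range. The highest value was 1.24 times the lowest for KMT2A, 1.28 times for AFF1, 1.31 times for AFF4, PSIP1 and ELL and 1.36 times for MEN1. DOT1L (1.49 times) and MLLT1 (1.61 times) varied most among the 8 members above 9 FPKM, while MLLT3, listed near 0, spanned 2.51 times. Each value of the 8 members above 9 FPKM rested on at least 1251 fragments by an approximate gene length, which gives a counting error of at most 2.83%. The values of MLLT3 rested on far fewer.

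The members lie on 5 chromosomes in GRCh38 (GENCODE 29). KMT2A (ENSG00000118058) occupies chromosome 11 from 118436464 to 118526832 on the plus strand, and MEN1 (ENSG00000133895) lies on the same chromosome from 64803510 to 64811294 on the minus strand. AFF1 (ENSG00000172493) spans chromosome 4 from 86935002 to 87141054 on the plus strand, and AFF4 (ENSG00000072364) spans chromosome 5 from 132875379 to 132963634 on the minus strand. PSIP1 (ENSG00000164985) and MLLT3 (ENSG00000171843) are on the minus strand of chromosome 9, from 15464066 to 15511019 and from 20341665 to 20622543. DOT1L (ENSG00000104885), MLLT1 (ENSG00000130382) and ELL (ENSG00000105656) lie on chromosome 19, from 2164149 to 2232578 on the plus strand and from 6210379 to 6279948 and 18442663 to 18522127 on the minus strand. Exons of other genes overlap 18.9% of the exon bases of KMT2A, 11.5% of DOT1L, 9.6% of ELL and 2.07% of PSIP1, and none of those of the other 5. The library kit as named does not mark strand, so fragments from those overlaps cannot be assigned to 1 gene.

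The start regions of 3 members are shown because they belong to the transcripts that the levels turn on. The KMT2A start drives both normal KMT2A and the KMT2A-AFF1 fusion. The AFF1 start shown is the first of 2 listed for normal AFF1. The MLLT3 start belongs to the member listed near 0. Each stretch runs from 250 to 51 bases before a RefSeq transcription start in GRCh38.p14, read 5′ to 3′ on the strand of the gene. Capitals mark GGGCGG, the core of a GC box, and CCAAT, on either strand. The coordinates are chr11:118436242-118436441 for KMT2A, chr4:86934761-86934960 for AFF1 and chr9:20622550-20622749 (minus strand) for MLLT3.
KMT2A: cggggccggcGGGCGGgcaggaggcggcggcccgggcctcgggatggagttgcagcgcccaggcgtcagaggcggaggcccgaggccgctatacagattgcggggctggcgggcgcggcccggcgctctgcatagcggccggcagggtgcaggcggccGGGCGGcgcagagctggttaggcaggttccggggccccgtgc
AFF1: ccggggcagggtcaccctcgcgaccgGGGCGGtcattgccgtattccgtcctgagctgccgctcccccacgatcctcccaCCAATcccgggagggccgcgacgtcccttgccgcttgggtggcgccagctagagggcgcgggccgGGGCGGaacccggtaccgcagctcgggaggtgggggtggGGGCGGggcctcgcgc
MLLT3: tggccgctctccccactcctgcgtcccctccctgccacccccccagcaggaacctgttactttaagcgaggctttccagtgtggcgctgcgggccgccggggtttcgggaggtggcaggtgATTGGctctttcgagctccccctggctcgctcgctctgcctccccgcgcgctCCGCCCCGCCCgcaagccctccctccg

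KMT2A held 2 GGGCGG matches and no CCAAT, the AFF1 window shown held 3 and 1, and MLLT3 held 2 overlapping GGGCGG matches and 1 CCAAT. The second AFF1 window, not shown, held 0 GGGCGG, 1 CCAAT and 23 CpG pairs. RefSeq windows were found for 8 of the 9 members, 11 windows in all, and none for DOT1L. Of these 11 windows 7 held GGGCGG, 6 held CCAAT and 0 held TATAAA, against 35.0%, 27.4% and 7.63% of 35116 promoter windows of the same length. CpG pairs numbered 27 in KMT2A, 25 in AFF1 and 18 in MLLT3, with a median of 8 over all promoters. MLLT3, listed near 0, thus held GGGCGG in its start region, as KMT2A and the AFF1 window shown did. A match describes the letters only, and no binding or methylation was measured.

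MLLT3, a reader of acetylated histones that can take the place of MLLT1 in the elongation complex, was the only member under the filter of at least 1 FPKM in at least 3 libraries. It was listed at 0.165, 0.169 and 0.203 FPKM in DMSO, at 0.0885, 0.131 and 0.119 in Mitoxantrone, at 0.191, 0.19 and 0.22 in Gilteritinib and at 0.123, 0.222 and 0.163 in Drug-combination. Mitoxantrone was the lowest condition at each replicate number, and its libraries did not overlap those of DMSO or Gilteritinib. The smallest fragment numbers that came out whole in all 12 libraries were 24 to 56, at a gene length of 6721 nt. Longer lengths with more fragments came out whole as well, so the counting error is at most 13.4% to 20.4%. The mean in Mitoxantrone was 0.631 times that in DMSO, with an exact permutation p of 0.1 (two-sided, adjusted p = 0.3 over 6 pairs of conditions). No p below 0.1 can be reached with 3 libraries against 3, so this difference could not pass the threshold. A low listing in this table need not mean a silent gene, since ACTN4, an actin crosslinker used by most cells and chosen here after its values were seen, was listed at 0.0329 FPKM.

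KMT2A itself did not separate the treatments. It was at 24.0, 22.3 and 23.2 FPKM in DMSO, at 23.7, 21.5 and 20.8 in Mitoxantrone, at 19.3, 22.3 and 22.7 in Gilteritinib and at 22.8, 22.7 and 22.2 in Drug-combination. All 4 conditions overlapped, and the lowest library was Gilteritinib replicate 1. On the log2(FPKM + 1) scale, the difference from DMSO was -0.07 in Mitoxantrone (95% confidence interval -0.24 to 0.10), -0.11 in Gilteritinib (-0.28 to 0.06) and -0.03 in Drug-combination (-0.20 to 0.14). The 3 intervals held 0, and their lower ends correspond to levels of 0.844, 0.824 and 0.868 times DMSO. Adjusted p-values from limma were 0.902, 1 and 1.

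AFF1, the partner in the fusion, behaved likewise. It was at 37.5, 35.2 and 34.9 FPKM in DMSO, at 39.8, 32.1 and 32.6 in Mitoxantrone, at 34.9, 33.8 and 33.3 in Gilteritinib and at 40.9, 34.6 and 35.5 in Drug-combination. Replicate 1 was the highest library in 4 of 4 conditions, and Gilteritinib lay just below DMSO with no overlap. The differences from DMSO were -0.05 in Mitoxantrone (-0.25 to 0.15), -0.08 in Gilteritinib (-0.28 to 0.13) and 0.04 in Drug-combination (-0.16 to 0.24), with adjusted p-values from limma of 0.96, 1 and 1. A gene-level value adds the fusion transcript to the normal ones for KMT2A and for AFF1 alike, so the fusion was not measured apart. In these bulk samples fewer cells of a kind and less RNA per cell cannot be told apart either.

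Over all 8 tested members, no treatment passed an adjusted p of 0.05 in limma. The counts were 0 of 8 for Mitoxantrone, Gilteritinib and Drug-combination against DMSO, where 0%, 0% and 0.00538% of all 18574 genes passed. They were also 0 of 8 for Drug-combination against Gilteritinib, for Drug-combination against Mitoxantrone and for Gilteritinib against Mitoxantrone, with 0% of all genes each. The interaction, which asks whether mitoxantrone had another effect beside gilteritinib than alone, also gave 0 of 8 and 0%. In simulated libraries for Mitoxantrone against DMSO over 18574 genes, this test recovered 0% of changes of 0.25, 37% of changes of 0.5 and 79% of changes of 1 on the log2 scale. The changes were placed in 200 genes drawn at random from the more highly expressed ones, not in the members. The simulated spread was independent between libraries and held no replicate numbers. The member farthest from DMSO was DOT1L in Gilteritinib, at -0.29, close to the smallest change simulated.

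**Figure D1:**
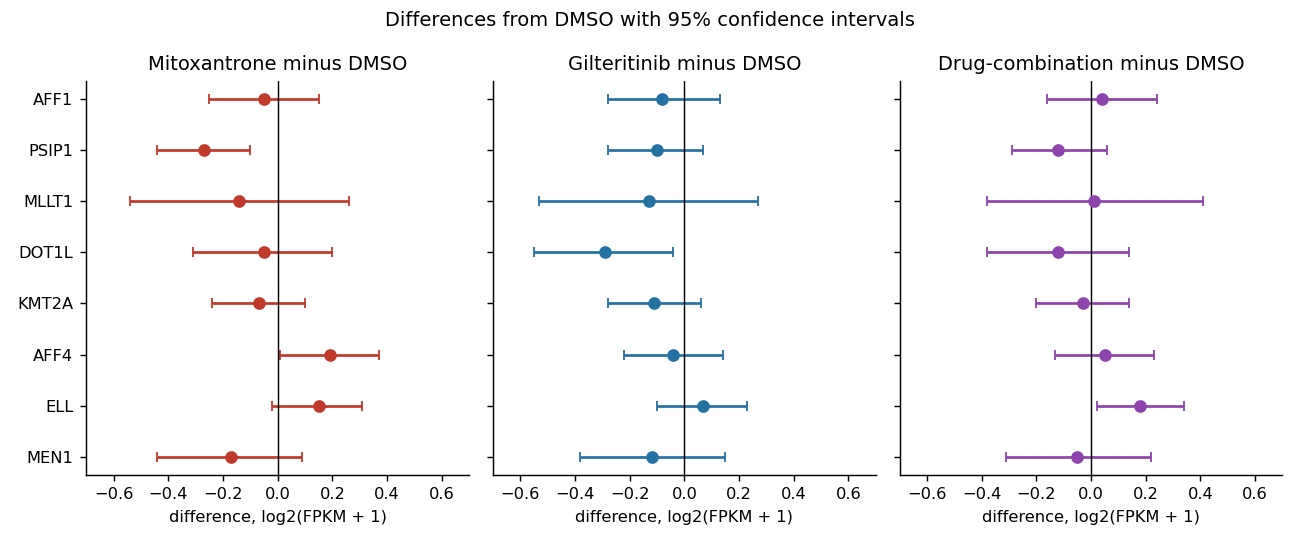
Difference of each treatment from DMSO on the log2(FPKM + 1) scale (horizontal axes) for the 8 tested members, as the estimate with its 95% confidence interval from limma. The intervals of PSIP1 and AFF4 in Mitoxantrone, DOT1L in Gilteritinib and ELL in Drug-combination leave out 0, and the other 20 hold it.

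At an unadjusted p below 0.05, a call rule added after the data were seen, 2 of 8 members, PSIP1 and AFF4, passed in Mitoxantrone against DMSO, beside 7.9% of all genes. The counts were 1 of 8 (DOT1L) beside 1.86% for Gilteritinib and 1 of 8 (ELL) beside 1.67% for Drug-combination. Between treatments they were 0 of 8 for Drug-combination against Gilteritinib (1.63% of all genes), 0 of 8 for Drug-combination against Mitoxantrone (5.53%) and 1 of 8, AFF4, for Gilteritinib against Mitoxantrone (9.52%). The interaction gave 1 of 8, PSIP1, beside 2.91%. With the replicate number as a block DOT1L also passed in Gilteritinib against Mitoxantrone, which made 2 of 8 beside 18% of all genes. The other counts of members were as before under the block, beside 15.9% of all genes for Mitoxantrone against DMSO, 4.96% for Gilteritinib against DMSO, 4.35% for Drug-combination against DMSO, 4.39% for Drug-combination against Gilteritinib, 12.2% for Drug-combination against Mitoxantrone and 7.4% for the interaction.

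PSIP1 and MEN1 hold the KMT2A complex on chromatin. PSIP1 was at 31.2, 29.4 and 31.0 FPKM in DMSO, at 23.9, 25.7 and 26.0 in Mitoxantrone, at 31.3, 28.2 and 25.8 in Gilteritinib and at 27.0, 27.7 and 29.7 in Drug-combination. All Mitoxantrone libraries lay below all DMSO libraries, and below those of Drug-combination. The Mitoxantrone minus DMSO difference was -0.27 (standard error 0.078, interval -0.44 to -0.10), lower at 3 of 3 replicate numbers, with an adjusted p of 0.492 from limma. Drug-combination minus Mitoxantrone was 0.15 (-0.02 to 0.32, adjusted p = 0.908 from limma), and the interaction was 0.26 (0.01 to 0.50, adjusted p = 1 from limma). The differences from DMSO were -0.10 (-0.28 to 0.07) in Gilteritinib and -0.12 (-0.29 to 0.06) in Drug-combination.

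MEN1, the scaffold through which PSIP1 reaches KMT2A, was at 11.0, 12.03 and 11.5 FPKM in DMSO and at 12.3, 9.29 and 9.01 in Mitoxantrone. It was at 10.1, 10.7 and 10.8 in Gilteritinib and at 9.5, 12.2 and 11.8 in Drug-combination. In Mitoxantrone replicate 1 was high and replicates 2 and 3 were low, whereas in Drug-combination the order was turned. Gilteritinib lay below DMSO with no overlap. The differences from DMSO were -0.17 in Mitoxantrone (-0.44 to 0.09), -0.12 in Gilteritinib (-0.38 to 0.15) and -0.05 in Drug-combination (-0.31 to 0.22). Adjusted p-values from limma were 0.811, 1 and 1.

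Among the elongation factors, AFF4 is the scaffold of the super elongation complex. It was at 17.7, 16.9 and 17.1 FPKM in DMSO, at 17.7, 20.5 and 21.3 in Mitoxantrone, at 17.1, 16.7 and 16.3 in Gilteritinib and at 19.5, 16.8 and 17.3 in Drug-combination. Mitoxantrone replicates 2 and 3 were the highest libraries, and Mitoxantrone replicate 1 was at the level of DMSO replicate 1. The difference from DMSO was 0.19 in Mitoxantrone (standard error 0.082, interval 0.01 to 0.37), with an adjusted p of 0.605 from limma. Gilteritinib minus Mitoxantrone was -0.23 (-0.41 to -0.05, adjusted p = 0.406 from limma). In Gilteritinib and Drug-combination AFF4 differed from DMSO by -0.04 (-0.22 to 0.14) and 0.05 (-0.13 to 0.23).

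ELL, an elongation factor for RNA polymerase II and itself a KMT2A partner in leukemia, was at 13.0, 14.3 and 14.4 FPKM in DMSO and at 16.0, 15.8 and 15.8 in Drug-combination. It was at 17.0, 15.1 and 14.4 in Mitoxantrone and at 14.1, 15.1 and 14.6 in Gilteritinib. All libraries of Drug-combination and of Mitoxantrone lay above all DMSO libraries, Mitoxantrone replicate 3 by less than 0.1 FPKM. The difference from DMSO was 0.18 in Drug-combination (standard error 0.074, interval 0.02 to 0.34, adjusted p = 1 from limma). It was 0.15 in Mitoxantrone (-0.02 to 0.31) and 0.07 in Gilteritinib (-0.10 to 0.23), with adjusted p-values of 0.677 and 1.

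MLLT1, a reader of acetylated histones on which KMT2A-rearranged cells are known to depend, varied most of the 8 tested members. It was at 24.3, 32.4 and 32.1 FPKM in DMSO, at 29.9, 25.7 and 24.4 in Mitoxantrone, at 22.0, 28.6 and 30.4 in Gilteritinib and at 22.6, 35.5 and 32.4 in Drug-combination. All 4 conditions overlapped, and replicate 1 went the other way in Mitoxantrone than in the other 3. The differences from DMSO were -0.14 (-0.54 to 0.26), -0.13 (-0.53 to 0.27) and 0.01 (-0.38 to 0.41) in Mitoxantrone, Gilteritinib and Drug-combination, the widest intervals of the 8 members.

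DOT1L was at 21.4, 23.9 and 27.2 FPKM in DMSO, at 23.7, 26.4 and 19.9 in Mitoxantrone, at 18.2, 20.1 and 20.0 in Gilteritinib and at 20.0, 22.9 and 23.4 in Drug-combination. All Gilteritinib libraries lay below all DMSO libraries. The difference was -0.29 (standard error 0.116, interval -0.55 to -0.04), lower at 3 of 3 replicate numbers, with an adjusted p of 1 from limma. With 20 nM gilteritinib beside mitoxantrone it was -0.12 (-0.38 to 0.14), and Drug-combination minus Gilteritinib was 0.17 (-0.08 to 0.43), the largest of the 8 members in that comparison, where the lowest was -0.01 for PSIP1. In Mitoxantrone alone DOT1L differed from DMSO by -0.05 (-0.31 to 0.20).

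The replicate numbers changed what several members showed. At replicates 1, 2 and 3, Mitoxantrone minus DMSO was 0.15, -0.34 and -0.32 for MEN1 and 0.29, -0.32 and -0.38 for MLLT1. For AFF4 it was 0.00, 0.27 and 0.30, and for AFF1 0.08, -0.13 and -0.10. For these 4 genes (MEN1, MLLT1, AFF4 and AFF1) replicates 2 and 3 gave like values, while replicate 1 lay on the other side of 0 or at 0. PSIP1 was lower at all 3, at -0.37, -0.19 and -0.24. The values were -0.02, -0.05 and -0.15 for KMT2A, 0.14, 0.14 and -0.43 for DOT1L and 0.37, 0.08 and 0.00 for ELL. Drug-combination minus Mitoxantrone, which shares the Mitoxantrone libraries, was -0.39, 0.45 and 0.40 for MLLT1, -0.34, 0.36 and 0.35 for MEN1 and 0.13, -0.28 and -0.29 for AFF4. For AFF1 it had 1 sign at all 3 numbers, at 0.04, 0.11 and 0.12.

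With replicates 2 and 3 only, a setting added after replicate 1 was seen to stand apart, 3 of 8 members passed an adjusted p of 0.05 from limma in Mitoxantrone against DMSO, beside 6.41% of all genes. They were AFF4 (0.29, adjusted p = 0.0135), MEN1 (-0.33, adjusted p = 0.0139) and MLLT1 (-0.35, adjusted p = 0.021). In Drug-combination against Mitoxantrone 3 of 8 passed, beside 6.13%, with AFF4 at -0.28 (adjusted p = 0.0151), MEN1 at 0.35 (adjusted p = 0.0122) and MLLT1 at 0.42 (adjusted p = 0.0125). Both comparisons share the Mitoxantrone libraries. In Gilteritinib against Mitoxantrone 1 of 8 passed, beside 6.63%, which was AFF4 at -0.32 (adjusted p = 0.0103). The interaction had 2 of 8, beside 2.97%, with MEN1 at 0.48 (adjusted p = 0.0197) and MLLT1 at 0.55 (adjusted p = 0.0231). No member passed in Gilteritinib against DMSO (0.614% of all genes), in Drug-combination against DMSO (0.0485%) or in Drug-combination against Gilteritinib (0.0754%). These fits rest on 2 libraries a condition, and with all 12 libraries none of these calls held.

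Replicate 1 was also compared with replicates 2 and 3 across conditions. Of the 8 members only AFF1 passed, beside 38.3% of all genes, and it was higher in replicate 1 by 0.16 (standard error 0.043, adjusted p = 0.0169 from limma). MLLT1 was lower by 0.28 on the log2 scale, lower in 3 of 4 conditions, with an adjusted p of 0.0743, and DOT1L was lower by 0.13 with an adjusted p of 0.203. The median of all genes was 0.09 higher in replicate 1, and 4883 genes passed higher and 2240 lower. With median-ratio scaling 3108 passed higher and 3551 lower, AFF1 no longer passed (adjusted p = 0.251), and DOT1L (adjusted p = 0.0288) and MLLT1 (0.0237) did. Without Drug-combination replicate 1 the adjusted p of AFF1 was 0.0615 and no member passed. Replicate 2 against replicate 3 gave 0 of 8 members and 0% of all genes.

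None of the tested genes in 4 lists of other pathway genes passed an adjusted p of 0.05 from limma in any of the 3 comparisons with DMSO, with or without the replicate block. Of 20 genes of the super elongation complex and P-TEFb 18 were tested, and their median difference was 0.01 in Mitoxantrone, 0.02 in Gilteritinib and 0.00 in Drug-combination, against 0.03, -0.03 and -0.01 over all genes. At an unadjusted p below 0.05, 3 of the 18 were higher in Mitoxantrone and none lower, where 4.95% of all genes were higher and 2.94% lower. They were CDK9, the kinase of P-TEFb (19.1 ± 0.974 FPKM in DMSO and 22.0 ± 1.57 in Mitoxantrone, SD, n = 3), ELL2, a paralog of ELL (6.21 ± 0.402 and 7.86 ± 0.702), and HEXIM1, the inhibitor of P-TEFb (14.8 ± 0.6 and 17.7 ± 1.52). Their differences from DMSO were 0.19, 0.30 and 0.25, with adjusted p-values of 0.574, 0.494 and 0.492 from limma. ELL2 (0.29) and HEXIM1 (0.23) were also the 2 higher genes of the list in Drug-combination, beside LEO1 as the 1 lower gene, and HEXIM1 (0.16) was the 1 higher gene in Gilteritinib. Of all genes 0.829% were higher and 0.84% lower in Drug-combination, and 0.565% higher and 1.3% lower in Gilteritinib. Under the block MEPCE, an enzyme that caps the 7SK RNA which holds P-TEFb inactive, was a further higher gene in Gilteritinib, named after its values were seen (0.19, adjusted p = 0.995 from limma). LARP7, also named after its values were seen, was lower in Mitoxantrone under the block (-0.16, adjusted p = 0.211 from limma). That made 3 higher and 1 lower there. Of all genes 15.9% passed under the block in Mitoxantrone and 4.96% in Gilteritinib. All libraries of ELL2 and HEXIM1 in Mitoxantrone and Drug-combination lay above those of DMSO. So did those of HEXIM1 in Gilteritinib (16.1 to 17.2 against at most 15.4 FPKM) and of CDK9 in Mitoxantrone (at least 20.3 against at most 20.0). ELL2 and HEXIM1 were named for the smallest p of an F test over the same conditions in the blocked fit. Their separation was thus part of the choice and gives no further support. CCNT1, the cyclin partner of CDK9, was at 21.2 ± 2.33 FPKM in DMSO and between 21.4 and 21.8 on average in the treatments.

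Of 32 further partner genes 25 were tested, with a median of 0.05 in Mitoxantrone, -0.02 in Gilteritinib and 0.02 in Drug-combination. In Mitoxantrone 4 of the 25 were higher at an unadjusted p below 0.05 and 2 lower, beside the 4.95% and 2.94% of all genes. None of the 25 passed in Gilteritinib or Drug-combination, where 1.86% and 1.67% of all genes did. The higher ones included GAS7, a cytoskeletal protein and rare KMT2A partner, and AFDN (AF6), a junction protein and partner in t(6;11). These 2 were named for the smallest p of an F test over the same conditions in the blocked fit. Their separation between conditions was thus part of the choice and gives no further support. GAS7 was at 2.04, 2.49 and 2.49 FPKM in DMSO, at 4.13, 4.29 and 4.41 in Mitoxantrone, at 1.95, 2.05 and 2.0 in Gilteritinib and at 3.97, 2.04 and 2.22 in Drug-combination. All Mitoxantrone libraries lay above all others, and of the Drug-combination libraries only replicate 1 came near them. Its difference from DMSO in Mitoxantrone was 0.66 (0.30 to 1.03, adjusted p = 0.474 from limma). AFDN was at 12.6 ± 0.269 FPKM in DMSO and 15.9 ± 2.08 in Mitoxantrone (SD, n = 3), a difference of 0.31 (adjusted p = 0.585 from limma). ARHGAP26 (0.46) and SEPTIN9 (0.22) were the other higher genes and KNL1 (-0.35) and GMPS (-0.17) the lower ones, named after their values were seen. Of these genes with GAS7 and AFDN, ARHGAP26 had the smallest unadjusted p from limma (0.000903, adjusted p = 0.397). Under the block LASP1, named in the same way, was a further higher gene (0.25, adjusted p = 0.159 from limma). That made 5 higher and 2 lower of the 25, beside 15.9% of all genes.

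The 20 genes of the KMT2 methyltransferase complexes were all tested and none had an unadjusted p below 0.05 against DMSO in any treatment. Their medians were 0.01 in Mitoxantrone, -0.04 in Gilteritinib and -0.01 in Drug-combination. WDR5 and ASH2L, core subunits shared by these complexes, were at 36.3 ± 3.56 and 54.5 ± 5.43 FPKM in DMSO and at 35.1 ± 1.32 and 50.9 ± 3.15 in Mitoxantrone (SD, n = 3). DPY30, another core subunit, was at 17.2 ± 1.15 in DMSO and 18.9 ± 1.15 in Gilteritinib, and KMT2E, a relative of KMT2A, at 19.0 ± 1.34 in DMSO and 20.4 ± 0.475 in Mitoxantrone.

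Of 18 known targets of KMT2A fusions 14 were tested, with medians of -0.02 in Mitoxantrone, -0.06 in Gilteritinib and -0.02 in Drug-combination. MEIS1, the homeobox partner of HOXA9, was the 1 of 14 with an unadjusted p below 0.05, in Mitoxantrone, where 7.9% of all genes passed. It was at 35.8, 38.6 and 38.8 FPKM in DMSO and 42.0, 43.3 and 43.3 in Mitoxantrone. The groups did not overlap, and the difference was 0.18 (0.01 to 0.35, adjusted p = 0.591 from limma). HOXA9, a homeobox factor that drives self-renewal, was at 15.7, 23.0 and 22.2 FPKM in DMSO, at 16.8, 19.5 and 17.9 in Mitoxantrone, at 16.7, 16.4 and 17.1 in Gilteritinib and at 14.9, 20.4 and 21.1 in Drug-combination. Replicate 1 was its lowest library in 3 of 4 conditions, and all conditions overlapped. LMO2, a transcriptional bridging factor, was at 70.4, 105 and 107 FPKM in DMSO and at 72.8, 121 and 126 in Mitoxantrone, again lowest in replicate 1. Under the block LMO2 also passed an unadjusted p of 0.05 in Mitoxantrone (0.16, adjusted p = 0.258 from limma), and HOXA9 (-0.25) and PBX3 (-0.16), a homeobox cofactor named after its values were seen, did in Gilteritinib (adjusted p = 0.995 each), beside 15.9% and 4.96% of all genes.

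**Figure D2:**
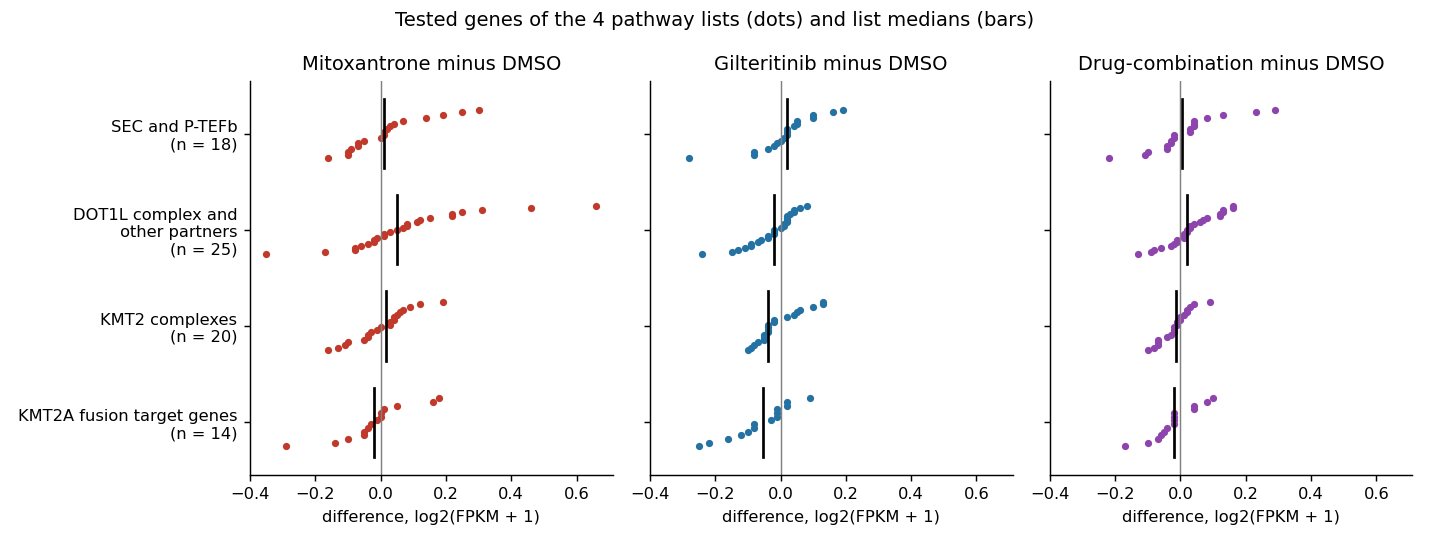
Difference of each treatment from DMSO on the log2(FPKM + 1) scale (horizontal axes) for the tested genes of 4 lists, with 1 dot per gene and a black bar at the list's median. The medians lie between -0.06 and 0.05, and the dot farthest to the right in Mitoxantrone is GAS7 at 0.66.

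The genes whose levels ran most like those of a member were found by Pearson correlation of log2(FPKM + 1) over the 12 libraries, among 7493 protein-coding genes with a mean of at least 5 FPKM. The libraries share conditions, replicate numbers and normalization, so these values are descriptions with no test. KMT2A ran most closely with DYNC1H1 (r = 0.855), ANKRD17 (0.841) and BOD1L1 (0.835), the first of them the dynein heavy chain. AFF1 ran with REV3L (0.961), the catalytic subunit of DNA polymerase zeta, ASCC3 (0.949) and DCBLD1 (0.945). For the other members the leading genes were CYTIP for AFF4 (0.971), MRPL4 for MEN1 (0.933), FANCI for PSIP1 (0.915), PKD1 for DOT1L (0.928), CLPTM1 for MLLT1 (0.967), SPC24 for MLLT3 (0.942) and DGCR2 for ELL (0.932). After the mean of each replicate number was removed these 13 correlations stayed between 0.852 and 0.977. The leading gene was then another one for 7 of 9 members, and REV3L for AFF1 and PKD1 for DOT1L were the leading genes both times.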

How the data were processed

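RNA of MV4-11 cells was reverse-transcribed and amplified by the Geo-seq method before library construction. The authors deposited 1 table of FPKM per gene for the 12 libraries, and all of its columns were used. The submitters' processing notes name Bowtie 0.12.9, Cufflinks 2.1.1, HTSeq, DESeq2 and the mouse build mm10, with no role or order. The gene identifiers in the table are human. How multi-mapped fragments were treated and which gene lengths were used are not given in the sources used here. Samples were grouped by the treatment label and numbered by title.

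Values were analyzed as log2(FPKM + 1) for the 18574 genes with at least 1 FPKM in at least 3 libraries. Differences were tested with limma 3.58.1 (R 4.3.3), two-sided, a trend of variance with level, a mean for each condition over all 12 libraries and Benjamini-Hochberg adjustment over all genes tested at 0.05. Intervals are 95% intervals of that fit. Since a pseudocount of 1 was added, fold changes of low genes are understated. MLLT3 was tested by exact permutation (SciPy). The test was tried on simulated data. Depth was recovered from FPKM steps with GENCODE 29 exon lengths, and 63.8% to 65.5% of low values came out whole within 0.03 of a fragment, too few for a count test.

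Deviations from the condition means correlated in all 18 pairs of same-numbered libraries, from 0.165 to 0.657. In the 36 pairs with another number they ran from -0.562 to 0.434. These ranges overlap, and whether the numbers pair libraries beyond replicate 1 standing apart was not tested. No source says what a number stands for. A fit blocked on replicate number was an alternative, beside others of filter, pseudocount, scaling, trend, samples and genes tested. The members and gene lists were chosen with earlier results of these data known. A further marker of other cell types is not reported here. Named genes were the 9 members, 6 partners or targets (CDK9, CCNT1, WDR5, ASH2L, HOXA9 and MEIS1), the 2 genes of each of 4 lists with the smallest F-test p over conditions in the blocked fit, and the genes correlating best with a member (3 for KMT2A and AFF1, 1 for the others).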

Additional observations from a re-analysis of the deposited data

How the results depend on the processing

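No member passed the threshold in any comparison between conditions, or in the interaction, under the planned settings, which were another pseudocount, 2 other filters, 2 scalings, no trend, protein-coding genes only, only the 6 libraries compared, the replicate block and each of the 12 libraries left out. The paired fit, blocked on replicate number (replicate block), left 0 members called in each, and moved the count of genes from 0 to 2 for Drug-combination against Mitoxantrone, from 0 to 5 for Gilteritinib against Mitoxantrone and from 1 to 0 for Drug-combination against DMSO. Without a filter on low values 1 to 3 genes passed in each comparison between conditions, and with a mean of at least 5 FPKM replicate 1 against replicates 2 and 3 gave 4347 genes in place of 7123. Leaving out Mitoxantrone replicate 1 gave 36 genes for Mitoxantrone against DMSO, 20 for Drug-combination against Mitoxantrone, 41 for Gilteritinib against Mitoxantrone and 1 for the interaction, with no member among them. In replicate 1 against replicates 2 and 3, 1 of 8 members passed in the main fit, beside 38.3% of all genes. With median-ratio scaling 2 passed, beside 6659 of 18574 genes, and with a library left out 0 to 3 passed, beside 5176 to 6783 genes. When only protein-coding genes were tested, 2 of 8 members passed, where 38.3% of all genes had passed in the main fit. With replicates 2 and 3 only, the members that passed numbered 3 for Mitoxantrone against DMSO (6.41% of all genes) and 3 for Drug-combination against Mitoxantrone (6.13%). They numbered 1 for Gilteritinib against Mitoxantrone (6.63%) and 2 for the interaction (2.97%). That setting also turned DOT1L in Drug-combination against Mitoxantrone (0.015), MEN1 in Drug-combination against DMSO (0.023) and PSIP1 in Drug-combination against Gilteritinib (0.086). The cause was not tested.

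With each library left out in turn, 10 of 53 log2 differences took either sign. They ranged from -0.146 to 0.006 for AFF1, -0.143 to 0.054 for DOT1L in Mitoxantrone against DMSO, and from -0.261 to 0.007 for MLLT1 in Gilteritinib against DMSO. In Drug-combination against DMSO the ranges were -0.032 to 0.085 for AFF1, -0.016 to 0.088 for AFF4, -0.109 to 0.054 for MEN1 and -0.118 to 0.202 for MLLT1. Against Gilteritinib PSIP1 ranged from -0.078 to 0.059, and against Mitoxantrone DOT1L from -0.174 to 0.023 and ELL from -0.018 to 0.095. None of these 10 had passed the threshold. MLLT3 rests on as few as 24 fragments in a library, and with 3 libraries against 3 its exact test could not pass. For the other 8 members no recovery of their own was simulated. Among 200 genes drawn at random from the more highly expressed ones and changed by 0.25 in simulated libraries it was 0%. In the data replicate 1 stood apart, which the simulated libraries did not hold. What kept each from passing was not tested.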
